A study of Mus musculus with 6 samples.

Results

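The Ms4a genes (membrane-spanning 4-domains, subfamily A) encode small proteins that cross the membrane 4 times, and in the mouse they lie side by side in a cluster on chromosome 19. Most members mark particular blood cell types: Ms4a1 encodes CD20 of B cells, Ms4a2 the beta chain of the mast cell IgE receptor, Ms4a6d and Ms4a7 are transcribed in macrophages, and Ms4a4b in T cells. In mouse T cells the Ms4a4b protein associates with the costimulatory receptor GITR and restrains proliferation, and Ms4a4c is induced by type I interferon in mouse immune cells. The 7 genes described here (Ms4a1, Ms4a4b, Ms4a4c, Ms4a6b, Ms4a6c, Ms4a6d and Ms4a7) were taken by symbol from 23992 gene symbols in the deposited table, with the transcript row of highest summed count kept for each symbol.

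The libraries were made from regulatory T cells (Treg cells) sorted from mice. These are CD4 T cells that express Foxp3 and hold immune reactions in check. There were 3 KO libraries, from male CD45.2 Foxp3YFP-Cre/YCrlf2fl/fl mice, and 3 WT libraries, from male CD45.2 Foxp3YFP-Cre/Y mice. Both groups carried the Foxp3-driven Cre with its yellow fluorescent reporter, which places the deletion of the floxed Crlf2 in cells that express Foxp3, and both were sorted as live CD4+YFP+ cells. The gene Crlf2 codes for the chain of the TSLP receptor that binds this cytokine. Groups follow the titles and genotypes, although each description has a strain line that gives the opposite strain. How many mice a library holds, their ages and whether replicates are separate animals is not stated, and p-values therefore reflect the spread among these libraries, which may be technical.

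Library totals were 9649601 to 18352401 counts in the KO libraries and 1439736 to 12180569 in the WT libraries, the lowest being WT replicate 2. They were summed over the row kept for each symbol, not over all rows. Levels are given as CPM, read counts scaled to library size by the trimmed-mean method of edgeR (TMM). Crlf2 averaged 6.44 ± 2.76 CPM in the KO libraries and 115 ± 27.7 CPM in the WT libraries (± SD, n = 3 each), which goes with the titles. Foxp3 averaged 434 ± 52.1 CPM in the KO libraries and 370 ± 148 CPM in the WT libraries. In WT replicates 1 to 3 it was at 474, 437 and 200 CPM. Lymph nodes and spleen are the labelled source, but the airway transcript Scgb1a1 was at 2167 to 17399 CPM in the KO libraries and 15959 to 76749 CPM in the WT libraries, and lung appears in the title of the table. WT replicate 3 stood apart: 9 erythroid markers summed to 166880 CPM there, against 1842 to 2672 CPM in KO and 1821 and 6760 CPM in the other WT libraries. These sums may count some reads more than once, as Hbb-bs and Hbb-b1 were at 31721 and 31713 CPM in WT replicate 3.

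By sequence the 7 genes fall into a pair of near-identical genes, a trio of like genes, and the more distant Ms4a1 and Ms4a7. The coding sequences of Ms4a4b and Ms4a4c were 91.8% identical over 681 aligned bases. Ms4a6b was 86.3% identical to Ms4a6c and 81.8% to Ms4a6d, and Ms4a6c was 79.7% identical to Ms4a6d. All other pairs of the 7 lay between 60.9% and 66.8%. The windows before a RefSeq transcript start of these genes were also alike within each pair. The 250 bases before such a start (GRCm38.p6, plus strand) are shown for 4 genes whose transcripts were lower in KO, to let the near-copies be compared. The RefSeq gene span of Ms4a4c begins before its window, which therefore lies inside the gene, and the last bases of the Ms4a6c window lie inside the span of Ms4a6c. Capitals mark the longest stretch that Ms4a4b shares with Ms4a4c, and that Ms4a6b shares with Ms4a6c.
Ms4a4b (chr19:11443308-11443557): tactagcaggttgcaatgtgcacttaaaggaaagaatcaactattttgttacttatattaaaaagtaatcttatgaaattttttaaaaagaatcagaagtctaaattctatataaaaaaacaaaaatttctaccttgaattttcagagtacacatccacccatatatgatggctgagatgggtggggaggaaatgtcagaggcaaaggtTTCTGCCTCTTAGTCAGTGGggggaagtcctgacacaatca
Ms4a4c (chr19:11407411-11407660): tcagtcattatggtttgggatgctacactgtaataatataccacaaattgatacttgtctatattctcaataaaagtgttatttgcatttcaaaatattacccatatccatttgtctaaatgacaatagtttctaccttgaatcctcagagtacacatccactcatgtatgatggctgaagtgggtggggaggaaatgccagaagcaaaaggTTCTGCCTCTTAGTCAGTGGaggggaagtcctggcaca
Ms4a6b (chr19:11518309-11518558): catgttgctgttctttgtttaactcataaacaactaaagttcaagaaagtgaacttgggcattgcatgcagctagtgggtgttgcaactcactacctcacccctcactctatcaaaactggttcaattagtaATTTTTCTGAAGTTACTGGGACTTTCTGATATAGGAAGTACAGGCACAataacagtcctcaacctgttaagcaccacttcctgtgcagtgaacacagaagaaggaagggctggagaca
Ms4a6c (chr19:11469118-11469367): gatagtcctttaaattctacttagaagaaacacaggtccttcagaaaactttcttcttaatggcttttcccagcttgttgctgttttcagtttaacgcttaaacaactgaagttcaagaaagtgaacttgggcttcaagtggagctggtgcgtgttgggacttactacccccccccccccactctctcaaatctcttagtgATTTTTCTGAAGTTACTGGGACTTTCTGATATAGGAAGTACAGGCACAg

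The Ms4a4b and Ms4a4c windows shared a run of 20 bases and were 80.1% identical over 231 aligned bases. The Ms4a6b and Ms4a6c windows shared a run of 48 bases and were 85.1% identical over 175 aligned bases. Each run occurred in 2 of 32851 upstream windows searched on both strands, the 2 printed. Across the pairs the longest shared run was 7 to 9 bases. Of the 7 genes, 5 matched the RefSeq promoter table, Ms4a7 being the fifth. None of their windows held the core of the interferon-stimulated response element, the letters GAAA followed after a gap of 2 bases by GAAA, on either strand. That core was in 2.98% of all windows, and in those of 8 of 15 matched genes of the interferon list described later. At a share of 2.98%, its absence from the windows of so few genes says little. Only exact letters were searched. The Ms4a6b and Ms4a6c windows both hold gaaagtgaac, which differs from the core in the last letter alone. How often such near matches occur in all windows was not counted. The letters AGGAAG, an ETS core present in 29.5% of all windows, occurred 3 times in the Ms4a6b window and once in that of Ms4a6c.

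Ms4a4b, Ms4a6b and Ms4a4c transcripts were lower in the KO libraries. For 5 of the 7 genes every KO library lay below every WT library. Of the 7 genes, 6 passed the filter on low counts, and 3 of these were called lower by edgeR's quasi-likelihood test (adjusted p under 0.05) and 0 higher. By edgeR 1.74% of the 12720 tested genes were called, 0.983% lower and 0.755% higher. Groups that did not overlap were found for 22.0% of the tested genes, 11.5% with KO below WT and 10.4% with KO above. A negative log2 fold change was found for 5 of the 6 tested members, against 54.2% of all tested genes, and an unadjusted p under 0.05 with a lower level in KO also for 5, against 9.13%. These are bulk samples, in which fewer cells of a type and less RNA per cell cannot be told apart.

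**Figure D1:**
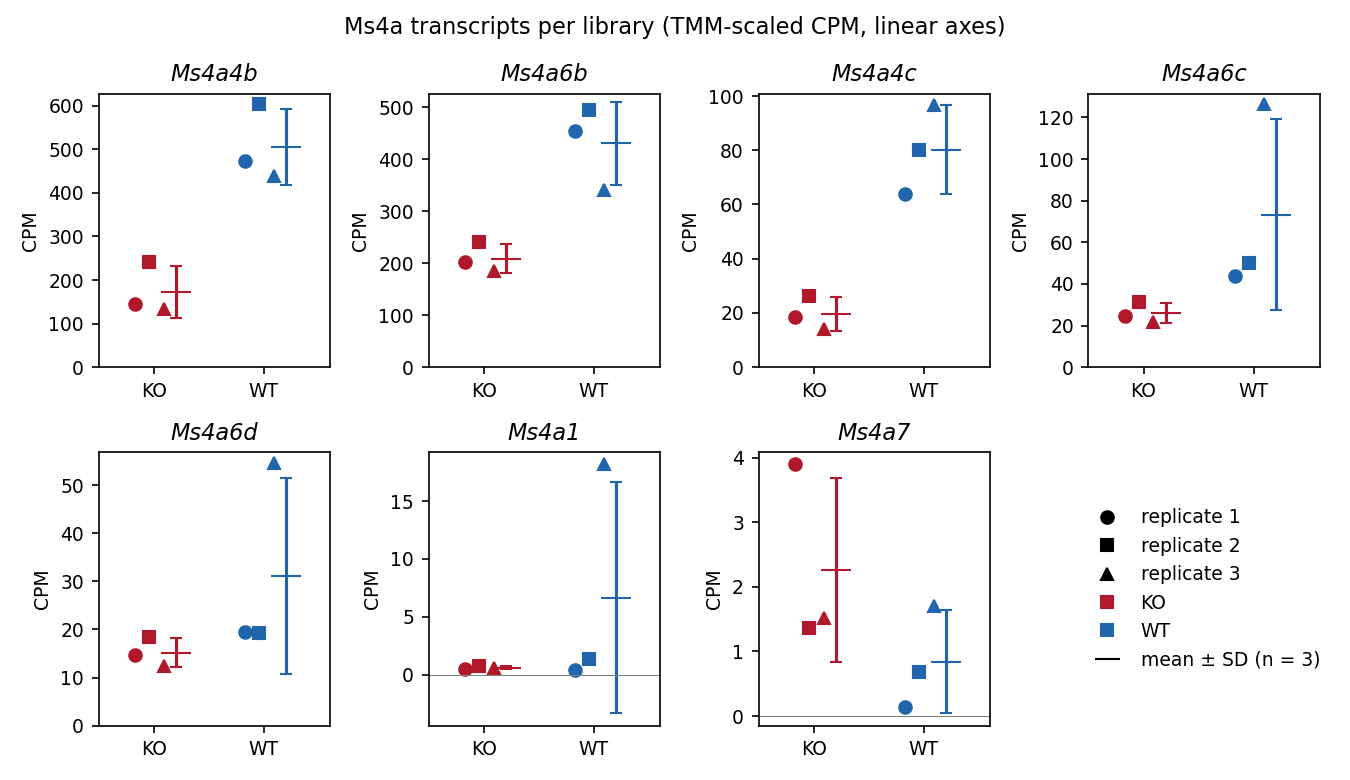
Level of each Ms4a gene in CPM on linear axes from KO (left, red) and WT (right, blue) libraries, with a marker shape per replicate and the mean ± SD (n = 3) beside the points. The KO and WT points of Ms4a4b, Ms4a6b, Ms4a4c, Ms4a6c and Ms4a6d do not overlap, and WT replicate 3 is far above the other libraries for Ms4a1, Ms4a6c and Ms4a6d.

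Ms4a4b, the T cell gene whose product associates with GITR, was lower in KO. It had 145, 241 and 133 CPM in the KO libraries (replicates 1 to 3), against 472, 604 and 439 CPM in the WT libraries (replicates 1 to 3). Every KO library was below every WT library, and KO replicate 2 was the highest of the KO libraries. The means were 173 ± 59.3 CPM in the KO libraries and 505 ± 86.8 CPM in the WT libraries (± SD, n = 3 each), a 2.91-fold lower level in KO (log2 change -1.54, SE 0.24, edgeR adjusted p = 0.0263). Ms4a4b lies on the plus strand of chromosome 19 (mm10, 11443558 to 11463549) and its protein-coding transcript has 7 exons in GENCODE M21.

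Ms4a6b, a T cell member of the Ms4a6 trio, was lower by a smaller factor. It had 203, 240 and 185 CPM in the KO libraries (replicates 1 to 3), against 455, 495 and 342 CPM in the WT libraries (replicates 1 to 3). The groups did not overlap, and the lowest WT value was that of replicate 3. Mean levels were 209 ± 28.3 CPM in the KO libraries and 431 ± 79.6 CPM in the WT libraries (± SD, n = 3 each), a 2.06-fold lower level in KO (log2 change -1.04, SE 0.17, edgeR adjusted p = 0.0291). The gene is on the plus strand of chromosome 19, 11518559 to 11530403.

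Ms4a4c, the near-copy of Ms4a4b that interferon induces, had the largest fall among the 3 called members. It had 18.4, 26.2 and 13.9 CPM in the KO libraries (replicates 1 to 3), against 63.8, 80.1 and 96.8 CPM in the WT libraries (replicates 1 to 3). Again KO replicate 2 was the highest KO library, and the groups were well apart. Mean levels were 19.5 ± 6.19 CPM in the KO libraries and 80.2 ± 16.5 CPM in the WT libraries (± SD, n = 3 each), a 4.12-fold lower level in KO (log2 change -2.04, SE 0.27, edgeR adjusted p = 0.0162). It is on the plus strand of chromosome 19, 11404717 to 11427246. The CPM of Ms4a4c divided by that of Ms4a4b was 0.105 to 0.127 in the KO libraries. In WT replicates 1 to 3 this ratio was 0.135, 0.133 and 0.220. Whether the fall of Ms4a4c differed from those of Ms4a4b and Ms4a6b was not tested.

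These 3 calls depended on the libraries. All 3 were made without WT replicate 3, where the log2 fold changes were -1.63 for Ms4a4b, -1.18 for Ms4a6b and -1.87 for Ms4a4c. Ms4a4b and Ms4a4c were called without KO replicate 2 and only Ms4a4c without WT replicate 1. edgeR made none of the 3 calls when KO replicate 1, KO replicate 3 or WT replicate 2 was omitted. Of 7, 7 and 6 members tested there, 4, 4 and 5 were lower at an unadjusted p under 0.05. The share of all tested genes at that p was not taken in those fits. Over all genes, those fits called 2, 3 and 12 genes higher and 2, 4 and 10 lower. Without WT replicate 3 the counts were 242 higher and 276 lower. Over all fits that left out 1 library the adjusted p ran from 0.0101 to 0.180 for Ms4a4b, from 0.0106 to 0.118 for Ms4a4c and from 0.00333 to 0.187 for Ms4a6b.

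**Figure D2:**
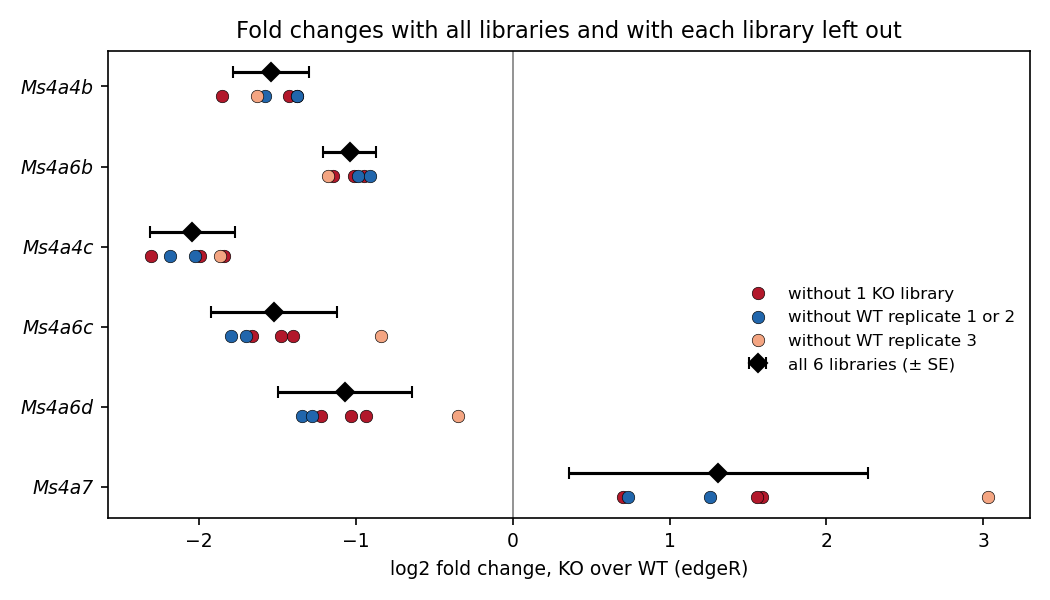
Log2 fold change of KO over WT from edgeR for the 6 tested members, with all 6 libraries (diamond, ± SE) and with each library left out (circles, coloured by the library removed). Ms4a4b, Ms4a6b and Ms4a4c stay between -0.91 and -2.31, while without WT replicate 3 Ms4a6d moves to -0.35 and Ms4a7 to 3.03.

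Set against T cell transcripts of the same library, the groups again did not overlap for these 3 genes. Ms4a4b equalled 1.83%, 3.43% and 1.56% of the summed CPM of 13 pan-T cell genes (Cd3e, Lck, Lat and others) in the KO libraries (replicates 1 to 3), against 6.97%, 8.57% and 9.03% in the WT libraries (replicates 1 to 3). Ms4a6b equalled 2.71% ± 0.638 in the KO libraries and 6.92% ± 0.183 in the WT libraries (± SD, n = 3 each). Its WT values lay within 6.71% to 7.03%, WT replicate 3 included, in which the pan-T sum was 4867 CPM, against 7033 to 8512 CPM in KO and 6781 and 7044 CPM in the other WT libraries. Ms4a4c equalled 0.164% to 0.372% in the KO libraries and 0.941% to 1.99% in the WT libraries. Of the 13 pan-T genes edgeR and limma-voom called 0 and DESeq2 3, all higher, and 5 were higher at an unadjusted p under 0.05 in edgeR. For this list and those below, DESeq2 called 367 of the 12720 tested genes higher and 496 lower. limma-voom called 133 higher and 176 lower. Scaled to these genes, the median log2 fold change of all tested genes was -0.41, against -0.04 with TMM, and Ms4a4b, Ms4a6b and Ms4a4c were at -1.85, -1.35 and -2.41. Tnfrsf18, which encodes GITR, was at 942 ± 124 CPM in the KO libraries and 856 ± 289 CPM in the WT libraries and was not called (log2 change 0.14, SE 0.24, edgeR adjusted p = 0.829).

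**Figure D3:**
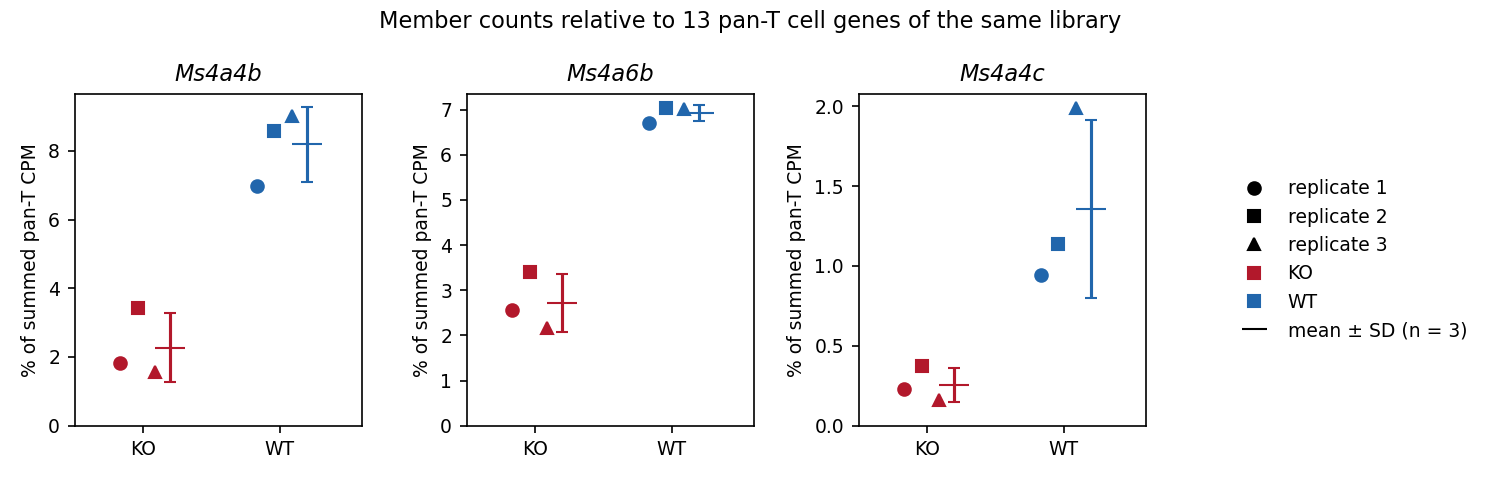
CPM of Ms4a4b, Ms4a6b and Ms4a4c as a percentage of the summed CPM of 13 pan-T cell genes in the same library, KO left and WT right, with points per replicate and the mean ± SD (n = 3). For each gene the 3 KO libraries sit below the 3 WT libraries, and the WT values of Ms4a6b lie within 6.71% to 7.03%.

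Per kilobase of transcript, at the lengths in the deposited table, Ms4a4b and Ms4a6b were the highest members in both groups. In the KO libraries Ms4a6b was above Ms4a4b in replicates 1 and 3 and below it in replicate 2, and in the WT libraries Ms4a4b was above Ms4a6b in all 3. The place of Ms4a4b above Ms4a6b rests on the length of 1258 bases in the table, as its GENCODE transcript has 4750 bases and would put it below Ms4a6b. In KO libraries Ms4a4b had 138 ± 47.1 and Ms4a6b 124 ± 16.8 CPM per kilobase, followed by Ms4a6c with 14.1 ± 2.59, Ms4a4c with 11.3 ± 3.59, Ms4a6d with 11.1 ± 2.19, Ms4a7 with 1.69 ± 1.06 and Ms4a1 with 0.289 ± 0.0574 (SD, n = 3). In WT libraries Ms4a4b had 402 ± 69.0 and Ms4a6b 255 ± 47.2 CPM per kilobase, followed by Ms4a4c with 46.5 ± 9.57, Ms4a6c with 39.8 ± 24.9, Ms4a6d with 22.7 ± 14.9, Ms4a1 with 3.23 ± 4.85 and Ms4a7 with 0.629 ± 0.596. Neighbours in the order whose values overlapped were Ms4a4b and Ms4a6b in KO, the 3 genes Ms4a6c, Ms4a4c and Ms4a6d in KO, Ms4a4c, Ms4a6c and Ms4a6d in WT, and Ms4a1 and Ms4a7 in WT. The CPM of Ms4a4b divided by that of Ms4a6b was 0.717 to 1.00 in the KO libraries and 1.04 to 1.28 in the WT libraries. Together, Ms4a4b, Ms4a4c and Ms4a6b made up 89.3% to 90.8% of the summed CPM of the 7 genes in the KO libraries and 81.4% to 94.3% in the WT libraries, the lowest being WT replicate 3.

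Ms4a6c and Ms4a6d, both transcribed in monocytes and macrophages, were lower in every KO library without passing the test. Ms4a6c had 24.7, 31.2 and 21.9 CPM in the KO libraries (replicates 1 to 3), against 43.9, 49.95 and 126 CPM in the WT libraries (replicates 1 to 3). WT replicate 3 was far above all other libraries. The log2 fold change of -1.52 had an SE of 0.40 (edgeR adjusted p = 0.119). Without WT replicate 3 it was -0.84 (edgeR adjusted p = 0.0890).

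Ms4a6d, the other myeloid gene of the trio, had 14.6, 18.4 and 12.5 CPM in the KO libraries (replicates 1 to 3), against 19.5, 19.2 and 54.7 CPM in the WT libraries (replicates 1 to 3). The gap between the highest KO and the lowest WT library was small, and WT replicate 3 stood far above. Its log2 fold change of -1.07 had an SE of 0.43 (edgeR adjusted p = 0.273). Without WT replicate 3 it was -0.35 (edgeR adjusted p = 0.576). The CPM of Ms4a6d divided by that of Ms4a6c was 0.569 to 0.591 in the KO libraries and 0.384 to 0.445 in the WT libraries, with WT replicate 3 at 0.433, between the other WT libraries.

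Markers of other cells also differed between the libraries. Of 9 macrophage markers 8 were in the table and tested, and edgeR, DESeq2 and limma-voom called 0, with 0 at an unadjusted p under 0.05 in edgeR. Their sum was 324 to 456 CPM in the KO libraries, against 61.8, 127 and 804 CPM in WT replicates 1 to 3. Of 9 monocyte markers 8 were tested, of which edgeR and limma-voom called 0 and DESeq2 2, both lower, with 3 lower at an unadjusted p under 0.05 in edgeR. The sum of the monocyte markers was 1046 to 1065 CPM in the KO libraries, against 453, 572 and 4750 CPM in WT replicates 1 to 3. Without WT replicate 3, edgeR called 3 macrophage markers and 3 monocyte markers higher in KO, and 1 monocyte marker lower. WT replicates 1 and 2 had more Ms4a6c than any KO library beside lower macrophage and monocyte sums. Most of the monocyte sum was Lyz2, at 816 to 837 CPM in the KO libraries and 231, 309 and 3747 CPM in WT replicates 1 to 3. Cd14 was also lower in WT replicates 1 and 2 than in the KO libraries. Ccr2, another monocyte marker, went the other way, at 84.4 to 98.3 CPM in the KO libraries and 118, 174 and 154 CPM in WT. Ms4a6c equalled 2.10% to 2.93% of the monocyte sum in the KO libraries, against 9.69%, 8.73% and 2.66% in WT replicates 1 to 3. No listed monocyte or macrophage marker in the table was at 0 in all libraries. The part of these cells in the difference was not tested.

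Ms4a1, which encodes CD20, was close to the counting limit outside WT replicate 3. It had 5, 9 and 11 reads in the KO libraries (replicates 1 to 3), against 3, 2 and 192 reads in the WT libraries (replicates 1 to 3). That was 0.487, 0.720 and 0.574 CPM in the KO libraries, against 0.401, 1.37 and 18.2 CPM in WT (exact 95% Poisson interval 15.7 to 20.9 for WT replicate 3, and at most 4.94 as the upper bound of any other library, counting error only). The gene did not pass the filter and was not tested. B cell markers were likewise highest in WT replicate 3, and 10 of 13 were in the table, 7 were tested, and edgeR and limma-voom called 0 and DESeq2 2, both lower, with 4 lower at an unadjusted p under 0.05 in edgeR. Their sum was 20.3 to 32.7 CPM in the KO libraries, against 26.7, 24.6 and 440 CPM in WT replicates 1 to 3. Cd79a, part of the B cell receptor, was at 2.73 to 4.59 CPM in the KO libraries, against 4.28, 10.9 and 153 CPM in WT replicates 1 to 3. Ms4a1 equalled 1.89% to 2.40% of the B cell sum in the KO libraries and 1.5% to 5.56% in the WT libraries.

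Ms4a7, a macrophage member, was the only one of the 6 tested with a positive log2 fold change. It had 40, 17 and 29 reads in the KO libraries (replicates 1 to 3), against 1, 1 and 18 reads in the WT libraries (replicates 1 to 3). This was 3.89, 1.36 and 1.51 CPM in the KO libraries, against 0.134, 0.684 and 1.70 CPM in WT, so that WT replicate 3 lay among the KO libraries. The log2 fold change of 1.31 had an SE of 0.95 (edgeR adjusted p = 0.560). Without WT replicate 3 it was 3.03 (edgeR adjusted p = 0.240). Ms4a7 had its lowest values in WT replicates 1 and 2, where the macrophage sum was also lowest. For the 1 read of WT replicate 2, the exact Poisson interval was 0.0173 to 3.81 CPM (counting error only). That range covers KO replicates 2 and 3, so a lower level in WT replicate 2 was not shown. Elsewhere Ms4a7 did not follow the sum. KO replicate 1 had the highest Ms4a7 but the lowest KO sum, 324 CPM. WT replicate 3 had the highest sum, 804 CPM, with Ms4a7 at 1.70 CPM. Ms4a7 equalled 0.332% to 1.20% of the macrophage sum in the KO libraries and 0.212% to 0.540% in the WT libraries.

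**Figure D4:**
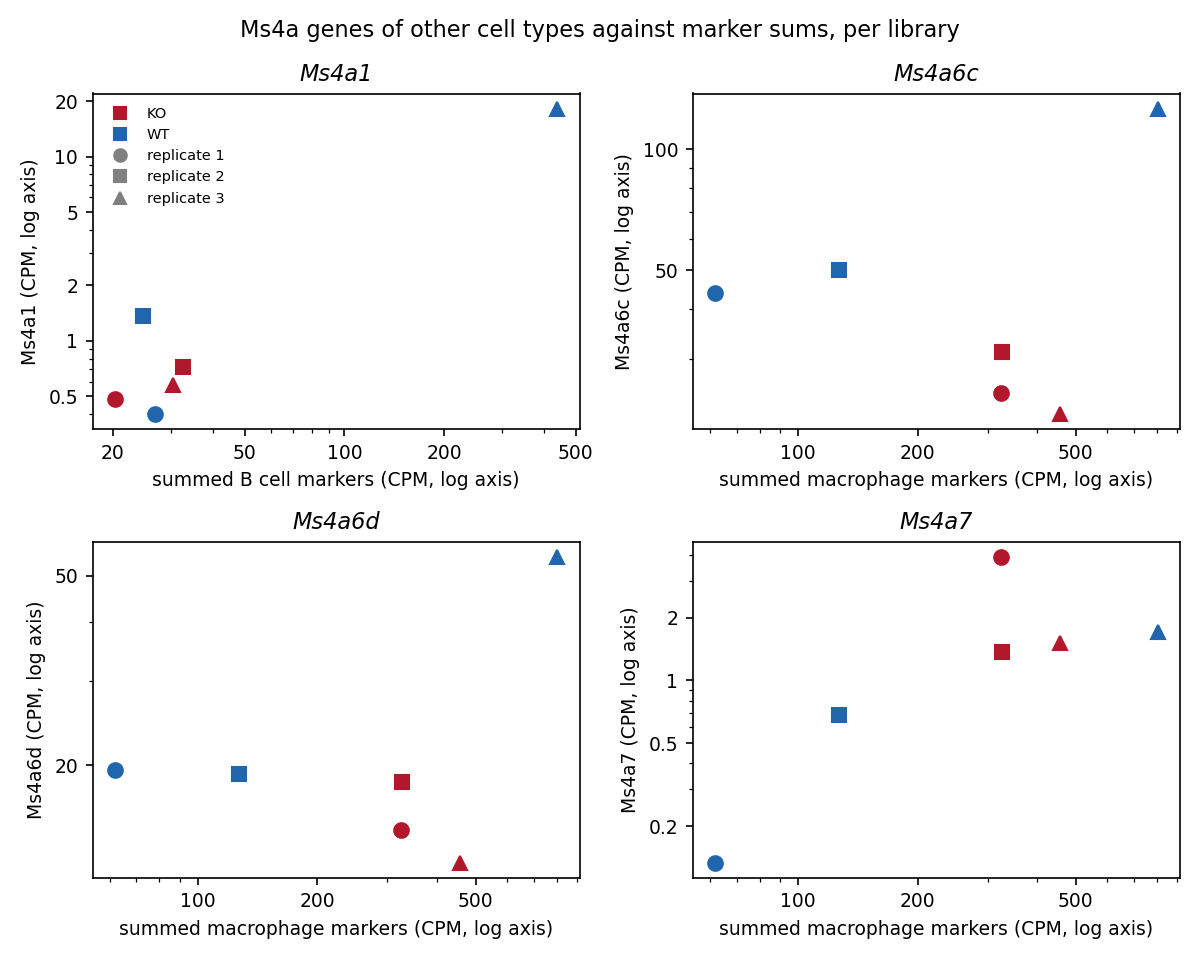
Ms4a1 against the summed B cell markers, and Ms4a6c, Ms4a6d and Ms4a7 against the summed macrophage markers, in CPM on log axes, with a point per library (KO red, WT blue, shape by replicate). WT replicate 3 has the highest marker sums, while WT replicates 1 and 2 have more Ms4a6c than the KO libraries at lower macrophage sums.

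Of the other Ms4a symbols, 9 were in the table and only Ms4a8a passed the filter. Ms4a8a, found on alternatively activated mouse macrophages, had 10, 14 and 26 reads in the KO libraries (replicates 1 to 3), against 4, 3 and 223 reads in the WT libraries (replicates 1 to 3). Its log2 fold change of -2.83 had an SE of 1.14 (edgeR adjusted p = 0.278), with WT replicate 3 alone above the others. Its log2 fold change was 0.13 without WT replicate 3 (edgeR adjusted p = 0.963). Ms4a2 had 2 to 6 reads in the KO libraries, against 4, 2 and 41 in the WT libraries, where mast cell and basophil markers summed to 9.19 to 12.1 CPM in the KO libraries and to 12.6, 16.4 and 341 CPM in the WT libraries. Ms4a4d had 3 to 8 reads in the KO libraries and 0 to 10 in the WT libraries, and Ms4a15 at most 2 in any library. Ms4a3, Ms4a5, Ms4a10, Ms4a13 and Ms4a18 had 0 reads in all libraries, which allows up to 0.157 to 0.292 CPM in the KO libraries and 0.284 to 2.05 CPM in the WT libraries at a limit of 3 counts per library. Tmem176a and Tmem176b, which encode related membrane proteins and lie outside the cluster, were not called, with log2 fold changes of -1.17 (SE 0.38, edgeR adjusted p = 0.187) and -0.96 (SE 0.30, edgeR adjusted p = 0.170). Their groups overlapped through KO replicate 2 and WT replicate 2.

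Along chromosome 19 the 3 called genes lay within a short stretch of the cluster, and no tested gene beside the cluster was called. RefSeq (GRCm38.p6) places 21 Ms4a genes between 10962289 and 11640851. Ms4a4c, Ms4a4b, Ms4a6c and Ms4a6b follow one another there on the plus strand, with Ms4a6d beyond them on the minus strand, and Ms4a7 and Ms4a1 on the minus strand before them. Of the 8 nearest genes on each side, 6 were tested, all on the side of lower coordinates, and 0 were called by edgeR, DESeq2 or limma-voom, with 0 at an unadjusted p under 0.05 in edgeR. Their log2 fold changes ran from -0.175 to 0.512 and the lowest edgeR adjusted p was 0.590. Cd6, which encodes a T cell surface receptor, was at 842 ± 97.6 CPM in the KO libraries and 848 ± 240 CPM in the WT libraries, and Tmem109 at 171 ± 32.4 CPM in the KO libraries and 142 ± 34.8 CPM in the WT libraries (± SD, n = 3 each). None of the 8 on the other side passed the filter.

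Inside the cluster, 2 genes that are not named Ms4a were tested, and they are described although the naming rule did not include them. The long noncoding RNA AW112010 had 351, 381 and 376 CPM in the KO libraries (replicates 1 to 3), against 484, 659 and 409 CPM in the WT libraries (replicates 1 to 3). The groups did not overlap, and the difference did not pass the test (log2 change -0.48, SE 0.17, edgeR adjusted p = 0.216). Gm8369, a protein-coding locus between Ms4a6c and Ms4a6b, had 3.02, 6.96 and 3.76 CPM in the KO libraries (replicates 1 to 3), against 11.2, 21.9 and 8.51 CPM in the WT libraries (replicates 1 to 3). Its groups did not overlap either (log2 change -1.55, SE 0.51, edgeR adjusted p = 0.186).

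**Figure D5:**
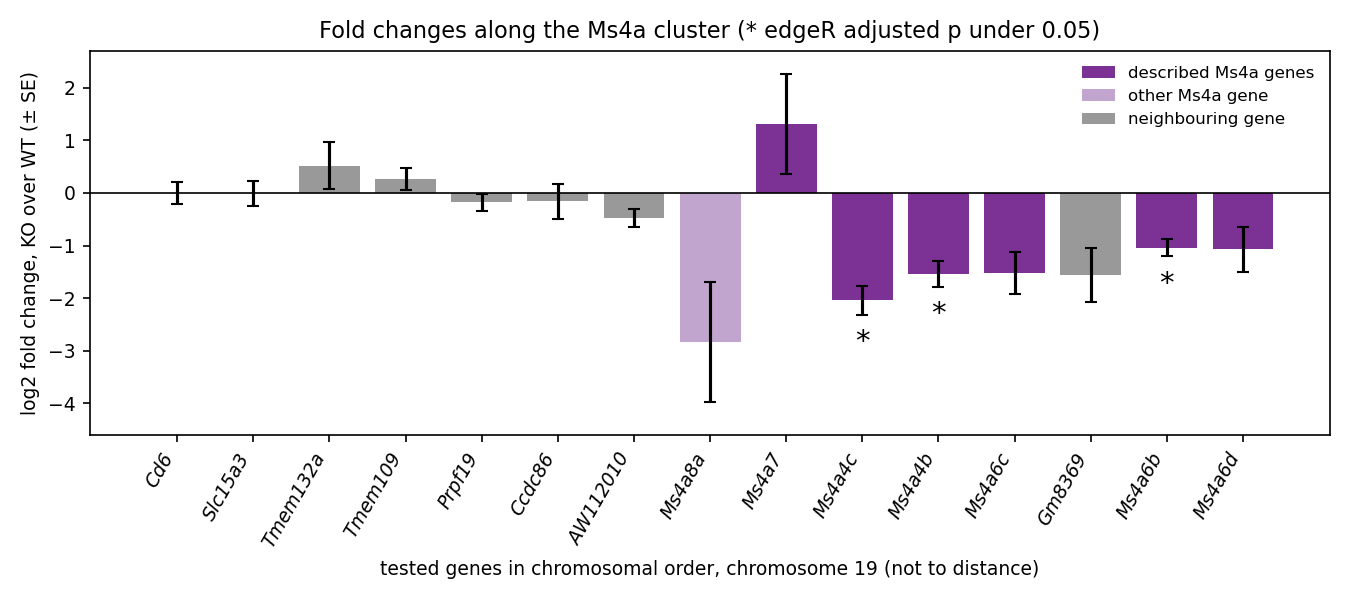
Log2 fold change of KO over WT (edgeR, ± SE) for the tested genes of the Ms4a cluster and its flanks in chromosomal order, not spaced by distance. Asterisks mark Ms4a4c, Ms4a4b and Ms4a6b, the genes called lower, while the flanking genes from Cd6 to Ccdc86 run from -0.175 to 0.512.

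Near-identical stretches can move reads between the copies. Of the 50-base stretches in the GENCODE transcript of each gene, 8.48% of those of Ms4a4c also occurred in another gene (134 of 1674 in Ms4a4b), and 4.19% of those of Ms4a4b. That Ms4a4b transcript has 4750 bases against 1258 in the row counted, so the share within the counted bases may differ. For Ms4a6b the share was 8.91%, with 100 of 1638 in Ms4a6c and 40 in Ms4a6d, and for Ms4a6d it was 2.92%. For Ms4a1 and Ms4a7 it was 0%. Ms4a6c had the highest share, 56.9%, of which 993 of 1792 stretches lay in BE692007, a long noncoding RNA on the opposite strand, so without a known strand setting the reads of the pair cannot be told apart. The shorter Ms4a6c row, of 696 bases against 1843, held 66.5% to 69.0% of the reads of the row used in the KO libraries and 57.4% to 69.9% in the WT libraries.

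Genes whose profile was most like a member were found by the root mean square difference of centred log2 CPM over the 6 libraries, among 9763 other genes with a mean of at least 5 CPM (9764 for Ms4a7). For Ms4a4b they were Phf11c (0.0858), Slfn1 (0.102) and Phf11d (0.113). Slfn1, a Schlafen gene of T cells, was at 84.3 ± 29.5 CPM in the KO libraries and 256 ± 47.9 CPM in the WT libraries. For Ms4a6b they were Samhd1 (0.0804), a nucleotide hydrolase gene, Tmem173 (0.0845), which encodes STING, and Mxd1 (0.0924). Samhd1 was at 468 ± 75.4 CPM in the KO libraries and 1027 ± 198 CPM in the WT libraries.

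For Ms4a4c the nearest profiles were those of Mnda (0.208), Ifi204 (0.234) and Xdh (0.237), and Ms4a4b was ninth. For Ms4a6c they were Ifitm2 (0.169), Nsg2 (0.183) and Serpinb9 (0.190), with Ms4a6d sixth. The nearest to Ms4a6d were Gsr (0.137), Tppp3 (0.147) and Nod1 (0.152), and to Ms4a7 Dstyk (0.387), Galnt9 (0.405) and Dusp23 (0.430). Between members, Ms4a6c and Ms4a6d were closest (0.247), then Ms4a4b and Ms4a6b (0.331) and Ms4a4b and Ms4a4c (0.347), whereas Ms4a7 lay at 1.33 to 1.91 from the others. Many other genes lay nearer to Ms4a4b and Ms4a6b than these members did. By nearness to Ms4a4b, Ms4a6b ranked 76 and Ms4a4c 92. By nearness to Ms4a6b, Ms4a4b ranked 392 and Ms4a4c 4547.

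Other lists give the setting of these values. Of 22 type I interferon response genes, all tested, 15 were called lower in KO by edgeR and 0 higher, with a median log2 fold change of -2.33, against -0.04 over all tested genes. Of all tested genes, 0.983% were called lower. When KO replicate 1, KO replicate 3 or WT replicate 2 was left out edgeR called 0 of the 22, with 20, 22 and 20 lower at an unadjusted p under 0.05. Over all genes those fits called 2, 4 and 10 lower, and the share at that unadjusted p was not taken. edgeR called 19 of the 22 without KO replicate 2 and 2 without WT replicate 1, where 81 and 17 of all genes were called lower. The median over the fits that left out 1 library stayed between -2.07 and -2.84. Of 12 resting T cell genes, all tested, 2 were called lower by edgeR, 4 by DESeq2 and 3 by limma-voom, and the median was -0.84. Without WT replicate 3 the median was -0.48 with 2 called, while 0 were called without KO replicate 1 (8 lower at an unadjusted p under 0.05) and 1 when any of the remaining 4 libraries was omitted. Of 8 Treg genes 0 were called by edgeR, DESeq2 or limma-voom (median 0.15), and 1 was higher at an unadjusted p under 0.05 in edgeR. The Treg median was -0.08 without WT replicate 3, with 1 higher and 2 lower at that p. Of 8 lung epithelial markers the same tools called 0, and 3 were lower at an unadjusted p under 0.05 in edgeR, with a median of -1.73 (-1.83 without WT replicate 3) and sums of 2284 to 18050 CPM in the KO libraries and 16621 to 79996 CPM in the WT libraries. In KO replicates 1 to 3 the lung epithelial sums were 14790, 18050 and 2284 CPM, with Ms4a4b at 145, 241 and 133 CPM. In WT replicates 1 to 3 they were 79996, 16621 and 24603 CPM, with Ms4a4b at 472, 604 and 439 CPM. The part of lung epithelial RNA in the differences was not tested.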

How the data were processed

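RNA of sorted mouse Treg cells was sequenced in 6 libraries. The deposited table gives raw counts of reads for each RefSeq transcript beside its length, as the file headers and whole-number values show. The submitters' processing notes name mm10, TopHat2 2.2.1, Bowtie2 2.2.6 and bcl2fastq. How reads were counted, with or without strand, and what was done with reads of several places is not given in the sources used here. There are 31682 rows. A count of 3 equals 0.157 to 2.05 CPM.

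The low-count filter was edgeR's filterByExpr (at least 10 counts, 15 in total). Scaling was by TMM, and testing by the robust quasi-likelihood F-test of edgeR 4.0.16 under R 4.3.3, without a block, with Benjamini-Hochberg adjustment over the 12720 genes kept. The SE was taken as the size of the log2 fold change over the square root of F. The fit was tested on simulated data. DESeq2 1.42.0, limma-voom 3.58.1 and other settings were alternatives. Sequences came from RefSeq (GRCm38.p6) and GENCODE M21 and were aligned with Biopython 1.88. The members and lists were chosen with earlier results of these data known. The genes named are the members, Crlf2, Foxp3, other Ms4a genes with reads, called or else the 2 most abundant neighbours, up to 3 of the most abundant genes of each list, and the 3 most alike profiles per member (prior count 2), leaving out unnamed loci and receptor segments. Some genes that the rule names are not reported here.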

Additional observations from a re-analysis of the deposited data

How the results depend on the processing

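With 6 tested members and 15 alternatives, all 90 member fold changes kept their sign. For 5 of the 6 members every KO library lay below every WT library, so omitting 1 library could hardly reverse the sign. All alternatives reuse the same libraries, so this count is no independent support. Ms4a4b, Ms4a4c and Ms4a6b were called in all 9 alternatives that used every library, and DESeq2 also called Ms4a6c (-1.50). Over the fits that left out 1 library, log2 fold changes ran from -1.85 to -1.38 for Ms4a4b, -2.31 to -1.84 for Ms4a4c, -1.18 to -0.91 for Ms4a6b, -1.80 to -0.84 for Ms4a6c, -1.34 to -0.35 for Ms4a6d and 0.71 to 3.03 for Ms4a7. Genes called in all, 96 higher and 125 lower in KO, numbered 26 and 222 when scaled to pan-T cell genes, 367 and 496 with DESeq2, 63 and 92 without robust estimation, 61 and 73 with the rows of a symbol summed, and 2 to 242 and 2 to 276 without 1 library. The labels do not say whether replicate numbers pair the samples. Deviations from the group means correlated at 0.0837, -0.147 and -0.0444 between libraries of the same number. Between libraries of different numbers they correlated at -0.145 to 0.185. With 3 libraries per group these values cannot decide whether samples were paired. With a replicate block, 32 genes were called higher and 91 lower, and Ms4a4b was at -1.58, Ms4a4c at -2.07 and Ms4a6b at -1.03, all 3 called. The cause of these changes was not tested. WT replicate 2, with the lowest total, limits the low genes: at a count of 3, values under 2.05 CPM cannot be told from 0 there.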
